A study of Homo sapiens with 3 samples.

Results

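Chromosome 7 of SC1, an established human cell line labelled as diffuse large B-cell lymphoma (DLBCL), was described by every interval that 2 deposited chromatin immunoprecipitation (ChIP-seq) peak lists place on it. These were 17120 of 215726 narrow peaks of CREBBP (7.94%) and 929 of 18280 broad regions of histone H3 acetylated at lysine 27, H3K27ac (5.08%). The study held 3 samples of this line: a ChIP against CREBBP, a ChIP against H3K27ac, and an input with no antibody, which was not analysed here. No treatment is given in the labels, although DMSO and rep2 stand in the peak names of each list. With 1 sample in each group there was no replicate error, and nothing was tested. The chromosome was chosen by its high density of CREBBP peaks in these same lists, so that density, and every value from them, is a description. The intervals given with shares, medians and densities are 95% intervals that cover counting error only and treat intervals on the genome as independent. Neither list states how deeply its library was sequenced.

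CREBBP is a lysine acetyltransferase that is brought to enhancers and promoters by transcription factors, where it acetylates histones, H3K27 included. H3K27ac marks active promoters and enhancers, so stretches with many active genes carry many marked regions. CREBBP is often lost in germinal-centre lymphomas. Chromosome 7 carries genes known in B cells and lymphoma, such as IKZF1, which encodes a lymphoid transcription factor, EZH2, a histone H3K27 methyltransferase, and CDK6, a cell-cycle kinase. Gain of chromosome 7 is a recurrent event in lymphomas of germinal-centre origin, and DNA that is present in more copies contributes more fragments to any sequencing library, whether or not it carries a mark. The gene table at hand was of another genome assembly than the lists, which are on hg19, and peaks are therefore given by position, without genes.

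CREBBP peaks were denser on chromosome 7 than on any other autosome, and H3K27ac regions were not. The CREBBP list held 107.6 peaks per Mb of chromosome 7 (counting interval 105.99 to 109.2), against a median of 70.3 over the 21 other autosomes (range 47.4 to 94.3), a ratio of 1.53. The nearest was chromosome 8, at 94.3 per Mb. Peaks covered 4.71% of chromosome 7, against a median of 2.94% of the other autosomes. The median distance between the midpoints of neighbouring peaks was 5621 bp on chromosome 7, against 6418 to 9954 bp on the others. H3K27ac regions numbered 5.84 per Mb on chromosome 7 (5.47 to 6.23), against a median of 5.65 on the others (range 3.26 to 18.9). That was rank 10 of 22, and the ratio of 1.03 turned to 0.965 when density was taken over occupied length and to 0.946 against the other autosomes pooled. They covered 1.06% of chromosome 7 and a median of 1.06% of the others. Set against protein-coding genes in the RefSeq table, there were 0.990 H3K27ac regions per gene on chromosome 7 and a median of 0.938 on the others.

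The CREBBP peaks that the authors' peak caller rated strongest followed the density of the full list. With a threshold of 0.05 on q, 307 CREBBP peaks of chromosome 7 passed, 1.79% (1.60 to 2.003%), where 1.81% of all autosomal peaks did, so the share was at the background. Their density was 1.93 per Mb on chromosome 7 (1.72 to 2.16), against a median of 1.29 on the others, a ratio of 1.50. Chromosomes 19 and 17, with 2.55 and 2.13 per Mb, were above it. Those chromosomes also had the most H3K27ac regions per Mb, which chromosome 7 did not.

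**Figure D1:**
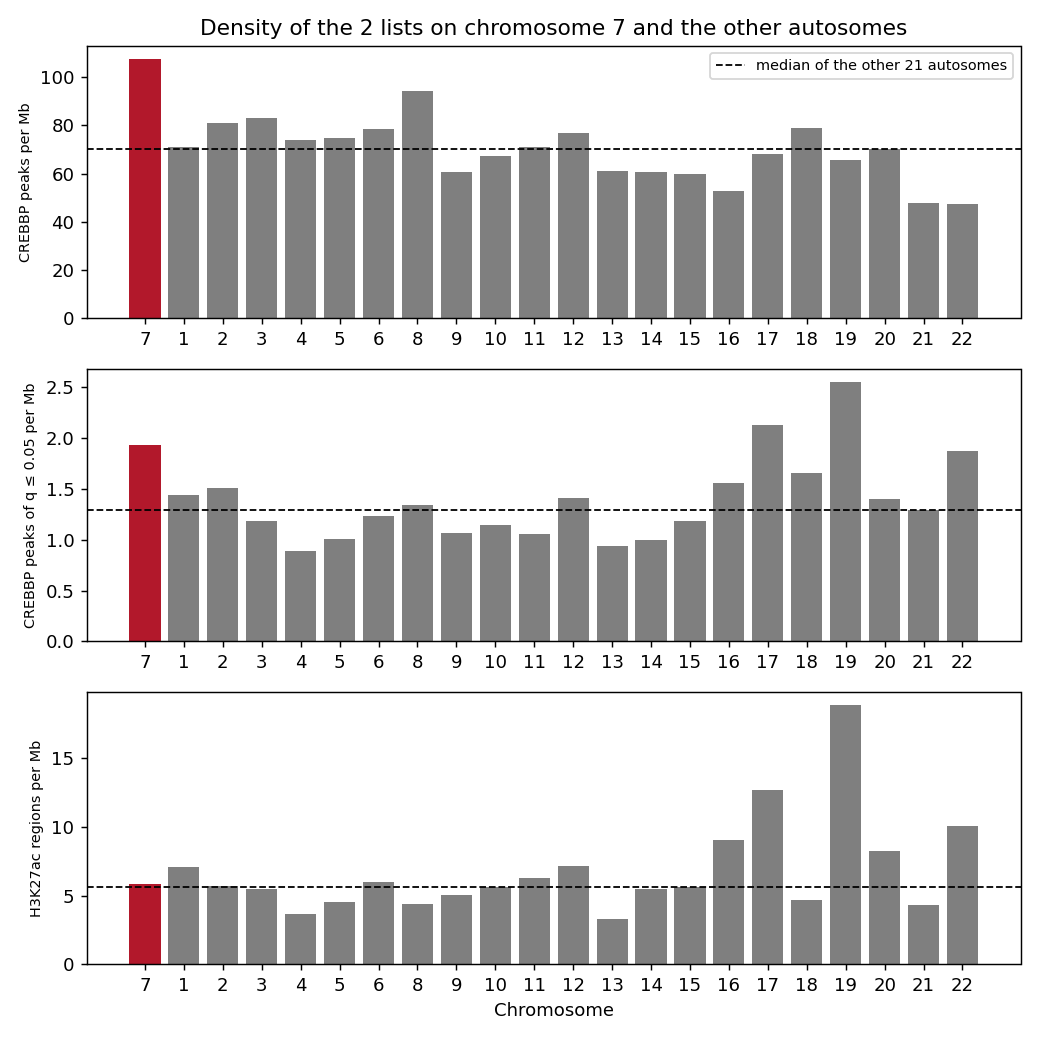
Bars give CREBBP peaks per Mb (top), CREBBP peaks with q of at most 0.05 per Mb (middle) and H3K27ac regions per Mb (bottom), for chromosome 7 (red, first) and the other autosomes (grey). The dashed line is the median of the 21 others. Chromosome 7 has the tallest bar in the top panel, at 107.6, and lies close to the line in the bottom panel, at 5.84.

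CREBBP peaks of chromosome 7 were slightly wider, and their median fold enrichment was equal to that elsewhere. The median width was 374 bp on chromosome 7 (371 to 376) and 361 bp on the other autosomes pooled (360 to 362). Chromosome by chromosome it was the highest of 22, above the 372 bp of chromosome 19. The difference lay outside H3K27ac regions, with medians of 372 bp (369 to 375) on chromosome 7 and 357 bp (357 to 358) on the others. Inside H3K27ac regions they were 444.5 bp (422 to 464) and 457 bp (452 to 464). Fold, the authors' ratio of ChIP signal to expected background, had a median of 2.17 both on chromosome 7 and on the others, since many weak peaks share that value. The upper part of the distribution differed. A fold of at least 3 was reached by 14.3% of CREBBP peaks on chromosome 7 (13.8 to 14.9%), against 11.1% on the others (11.004 to 11.3%), and by 11.4% of all autosomal peaks. The far tail showed no such excess, though it holds few peaks. Of the 200 peaks in the whole list with a fold of 5 or more, 10 lay on chromosome 7, or 5%. Its share of the list was 7.94%, and no interval was taken for the 5%.

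H3K27ac regions of chromosome 7 were close to the others in width and had a lower median fold with smaller p-values. Their median width was 1392 bp (1321 to 1441) on chromosome 7 and 1424 bp (1412 to 1444) on the others. The median H3K27ac fold was 4.49 (4.26 to 4.68) on chromosome 7 and 4.91 (4.84 to 4.98) on the others. Only chromosome 12 had a lower median fold, 4.42. A fold under 3 was seen in 259 regions of chromosome 7, 27.9% (25.02 to 30.9%), against 22.97% on the others and 23.2% over all autosomes, and 27.9% was the highest share of any autosome. The median −log10 p was nevertheless higher, 42.1 (37.2 to 46.7) on chromosome 7 and 34.9 (33.9 to 35.6) on the others. A −log10 p of at least 100 was reached by 25.6% of regions on chromosome 7 (22.8 to 28.6%) and by 19.8% on the others (19.2 to 20.4%). Nearly all H3K27ac regions passed the threshold of 0.05 on q, 99.5% of those on chromosome 7, where 99.4% of all autosomal regions did.

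The high CREBBP density ran along most of the chromosome. Counted in full 5 Mb windows from position 1, chromosome 7 gave 31 windows with a median of 535 CREBBP peaks, against 369 over the 535 full windows of the other autosomes. Of the 31 windows, 29 held more peaks than the median window elsewhere (93.5%, 78.6 to 99.2%), where 49.2% of the other autosomes' own windows did. More than the 90th percentile of the others, 509 peaks, was held by 17 of the 31. No window of chromosome 7 fell below the lower quartile of the others, 307 peaks. The windows from 55 to 60 Mb and from 70 to 75 Mb, with 354 and 322 peaks, were below the median elsewhere. H3K27ac windows did not share the high counts. Their median was 24 regions on chromosome 7 and 24 on the others, and 15 of 31 windows lay above it (48.4%, 30.2 to 66.9%), where 49.9% of the other autosomes' own windows did. Counts per window ranged 2.76-fold for CREBBP, from 322 to 889, and 14-fold for H3K27ac, from 5 to 70.

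**Figure D2:**
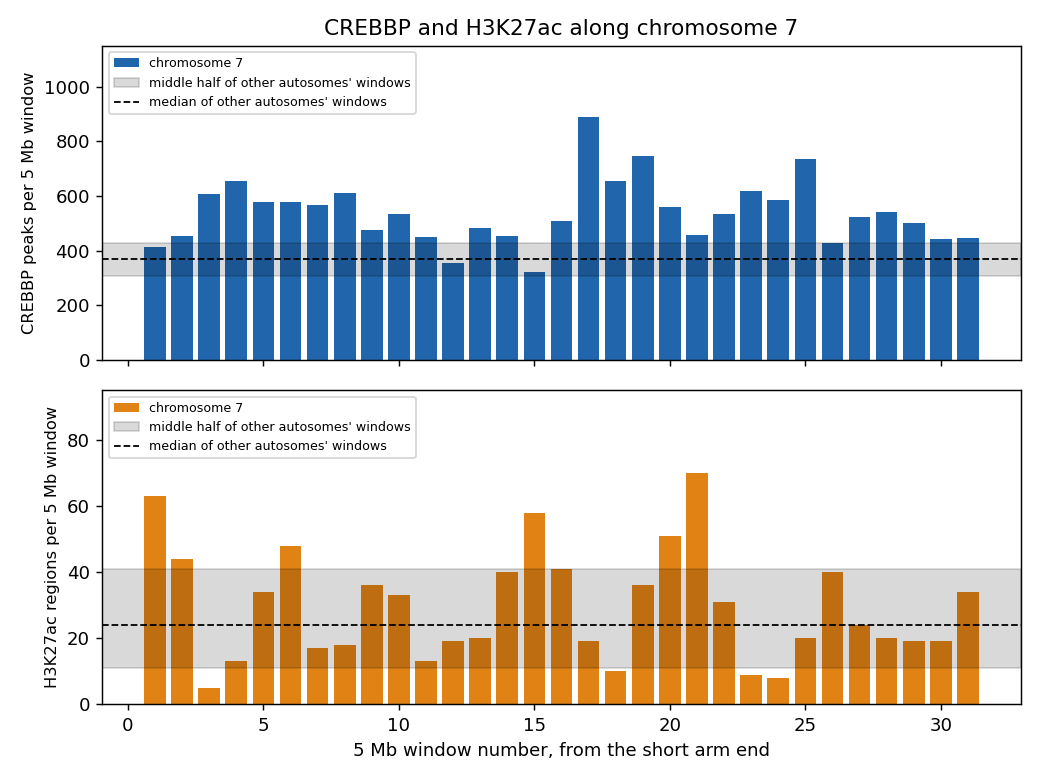
Bars give the number of CREBBP peaks (top) and H3K27ac regions (bottom) in each full 5 Mb window of chromosome 7, numbered from the end of the short arm. The dashed line and grey band are the median and interquartile range over 535 windows of the other autosomes. CREBBP bars stand above the dashed line in 29 of 31 windows and H3K27ac bars in 15 of 31, and the tallest bars of the panels fall in different windows.

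The densest CREBBP windows were those from 80 to 85 Mb, 90 to 95 Mb and 120 to 125 Mb. The window from 80 to 85 Mb held 889 CREBBP peaks and 19 H3K27ac regions, and no window of another autosome held as many CREBBP peaks (the highest was 826). The window from 90 to 95 Mb held 747 CREBBP peaks and 36 H3K27ac regions, and that from 120 to 125 Mb held 736 and 20. The window from 85 to 90 Mb, between the first pair, held 655 CREBBP peaks and 10 H3K27ac regions. Over the 15 Mb from 80 to 95 Mb, a stretch singled out after its values were seen, the CREBBP density was 152.7 peaks per Mb and the H3K27ac density 4.33 regions per Mb. The 3 densest single Mb of the chromosome, from 81 to 84 Mb, held 186, 197 and 188 CREBBP peaks and 4, 5 and 2 H3K27ac regions. Median CREBBP fold was 2.46 from 80 to 85 Mb and 2.43 from 90 to 95 Mb, the window values farthest above 2.17. H3K27ac fold was also high in these windows, with medians of 6.94 and 8.23.

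Of the 3 windows sparsest in CREBBP, 2 were among the 3 richest in H3K27ac. From 70 to 75 Mb there were 322 CREBBP peaks, the fewest, and 58 H3K27ac regions. From 0 to 5 Mb there were 415 CREBBP peaks and 63 H3K27ac regions. The window from 55 to 60 Mb, with 354 CREBBP peaks and 19 H3K27ac regions, contains part of a 3.01 Mb stretch with no interval of either list, from 58047088 to 61054377, where the centromere lies. The window richest in H3K27ac, from 100 to 105 Mb, held 70 regions and 456 CREBBP peaks, and was not among the sparsest in CREBBP. The poorest in H3K27ac were 10 to 15 Mb, 115 to 120 Mb and 110 to 115 Mb, with 5, 8 and 9 regions, and these held 606, 585 and 617 CREBBP peaks. Median H3K27ac width per window ran from 1039.5 bp, at 25 to 30 Mb, to 2178 bp, at 15 to 20 Mb, and median CREBBP width from 341 bp, at 125 to 130 Mb, to 395 bp, at 5 to 10 Mb and at 90 to 95 Mb.

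The arms had similar densities. Up to the empty stretch at the centromere the chromosome held 108.3 CREBBP peaks and 5.91 H3K27ac regions per Mb, and beyond it 110.5 and 5.98 per Mb. Median CREBBP width was 373 bp on the short arm side and 374 bp on the long arm side. Median H3K27ac fold was 4.39 and 4.55 on these sides. For CREBBP peaks that passed 0.05 on q the sides were less equal, with 1.64 per Mb on the short arm side and 2.16 per Mb on the long arm side. On the long arm side, 22 of them lay from 60 to 65 Mb, next to the empty stretch, the most of any window.

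Within chromosome 7, windows with more H3K27ac regions tended to hold fewer CREBBP peaks. Over its 31 windows the counts had a Spearman rho of -0.46 and a Pearson r of -0.42, and with windows of 2 Mb rho was -0.26. Windows of 1 chromosome come from the same libraries at the same depth and are no replicates, so these are descriptions. Among the 17 other autosomes with at least 15 windows, 16 had a positive rho, with a median of 0.52, and the exception was chromosome 8, at -0.19. Counting only windows in which at least 80% of the 100 kb bins held an interval of either list, rho was -0.52 on chromosome 7. It was then positive on 13 of the 17 others, with a median of 0.43 and a lowest value of -0.23 on chromosome 8. Among the shorter autosomes, left out of these counts, chromosome 19 had a rho of -0.31 over 11 windows and -0.75 over 10 occupied ones. Chromosome 22 had -0.77 over 6 occupied ones. Chromosome 7 was thus the lowest of all autosomes over full windows, but not over occupied ones. CREBBP peaks that passed 0.05 on q went the other way, with a rho of 0.52 against H3K27ac over the 30 occupied windows of chromosome 7. This rho was positive on every other autosome too, up to 0.93 on chromosome 21. Only chromosomes 8 and 17, at 0.46 and 0.49, were lower than chromosome 7.

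The excess of CREBBP peaks over other autosomes was greatest in windows poor in H3K27ac. Among windows at least 80% occupied, those with at most 9 H3K27ac regions held a median of 606 CREBBP peaks on chromosome 7 (3 windows, 585 to 617), against 273 on the other autosomes (75 windows, interquartile range 235.5 to 322), a ratio of 2.22. With 10 to 19 regions the medians were 589 on chromosome 7 (8 windows) and 368 on the others, a ratio of 1.60. With 20 to 39 regions they were 535.5 (10 windows) and 418, a ratio of 1.28. With 40 or more they were 455 (9 windows) and 383, a ratio of 1.19. On chromosome 8 the same classes held medians of 556.5, 578.5, 529 and 419.5 CREBBP peaks.

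The same gradient was seen peak by peak. Density was taken per Mb of ground at a given distance from the nearest H3K27ac region, over occupied 100 kb bins. Inside the regions there were 335.7 CREBBP peaks per Mb on chromosome 7, sixth of 22, against a median of 326.0 on the others, a ratio of 1.03. Within 5 kb outside, the densities were 38.2 and 40.5 per Mb, a ratio of 0.942. From 5 to 50 kb they were 100.2 on chromosome 7 and 87.3 on the others, a ratio of 1.15, and from 50 to 200 kb 120.6 and 86.3, a ratio of 1.40. Beyond 200 kb they were 111.4 and 59.8, a ratio of 1.86, and the highest of the others was chromosome 8, at 91.6 per Mb. Ground beyond 200 kb made up 41.0% of the occupied length of chromosome 7 and held 7138 of its CREBBP peaks, 41.7%. The stronger peaks showed the gradient too. Those that passed 0.05 on q were 1.11 times as dense on chromosome 7 as on the median other autosome inside regions. The ratio was 2.08 from 5 to 50 kb (75 peaks) and 2.22 from 50 to 200 kb (50 peaks). Beyond 200 kb it was 3.76 (53 peaks, 0.827 and 0.220 per Mb). In that last class 4 other autosomes were denser than chromosome 7, with chromosome 19 the highest, at 1.60 per Mb. The Mb from 61 to 62, just beyond the centromere, held 176 CREBBP peaks of any strength and 0 H3K27ac regions. The window from 60 to 65 Mb, which contains that Mb, held 22 of the stronger peaks at any distance. How many of the 53 were among them was not counted, so the ratio of 3.76 without them is not known.

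**Figure D3:**
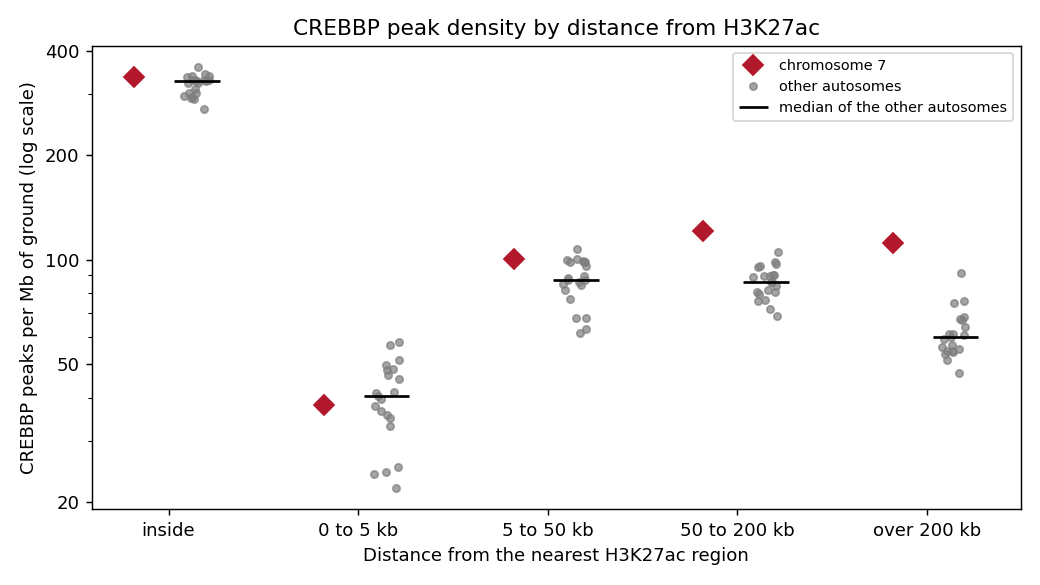
CREBBP peaks per Mb of ground (log axis) in 5 classes of distance from the nearest H3K27ac region, for chromosome 7 (red diamonds, left) and each other autosome (grey points, with their median as a line). Chromosome 7 lies among the others inside regions and within 5 kb, and above all of them from 50 to 200 kb, at 120.6, and beyond 200 kb, at 111.4.

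A smaller share of the CREBBP peaks lay in H3K27ac regions on chromosome 7 than on the other autosomes pooled. At least 1 bp was shared with a region by 564 of 17120 peaks on chromosome 7, 3.29% (3.03 to 3.57%), against 5.13% on the other autosomes (5.03 to 5.23%) and 4.98% over all autosomes. Chromosomes 8 and 4, at 2.995% and 3.28%, were lower. Counted against the stronger 50% of H3K27ac regions (by q) alone, the share on chromosome 7 was 1.998%. Of peaks that passed 0.05 on q, 120 of 307 on chromosome 7 were inside, 39.1% (33.6 to 44.8%), against 57.9% on the others (56.2 to 59.5%) and 56.4% over all autosomes. Here chromosomes 18 and 8, at 31.8% and 38.8%, were lower. More than 50 kb from any H3K27ac region lay 103 of these 307 peaks, 33.6% (28.3 to 39.1%), against 21.4% on the others (20.1 to 22.8%). Seen from the mark there was little difference. A CREBBP peak was held by 473 of 929 H3K27ac regions on chromosome 7, 50.9% (47.6 to 54.2%), against 48.9% on the others (48.1 to 49.6%) and 49% over all autosomes.

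The make-up of the CREBBP peaks was followed further by solving each for the fragments and the background at its summit. Fold was taken as (fragments + 1) / (background + 1) and p as the Poisson chance of more fragments than seen. Both unknowns were solved together from these. For all but 1 of the 17120 peaks of chromosome 7, a whole fragment number gave the deposited −log10 p within 0.001. Numbers were tried from small to large up to a fixed limit, and the smallest that fitted was kept. Whether another also came within 0.001 was not tested. The solved numbers are inferences from the authors' values. In the solution the background was held at or above its commonest value, 1.3045 fragments. Over all peaks the median was 5 fragments on chromosome 7 and 5 on the others, and the means were 6.20 and 5.98. By mean fragments chromosome 7 ranked 8 of 22. The commonest background was found at 44.1% of CREBBP peaks on chromosome 7 (43.4 to 44.8%) and at 55.0% on the others (54.8 to 55.2%). Peaks at the commonest background had 48.3 per occupied Mb on chromosome 7 and 41.6 on the median other autosome, a ratio of 1.16 and rank 3. Above it and up to 2 fragments the densities were 36.8 and 23.03, a ratio of 1.60 and rank 1. On a background of 2 to 3 fragments they were 14.5 and 5.79, a ratio of 2.50 and rank 1. At 3 to 5 fragments they were 6.07 and 2.67, a ratio of 2.27, with chromosome 18 higher. At 5 or more they were 3.86 and 3.16, a ratio of 1.22 and rank 5, with chromosome 19 the highest, at 10.02.

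At the commonest background, where the denominator of the fold was the same everywhere, CREBBP peaks of chromosome 7 were shifted to more fragments. Peaks of 3 fragments were less dense on chromosome 7, at 7.95 per occupied Mb, than on the median other autosome, at 9.37, a ratio of 0.848. Peaks of 4 fragments had 17.2 and 16.7 per Mb, a ratio of 1.03. The ratio was 1.33 at 5 fragments, 1.62 at 6, 2.09 at 7 and 2.24 at 8, with 2.29 and 1.10 peaks per Mb at 7 fragments. From 5 fragments upward chromosome 7 ranked first in every class. The mean number of fragments of these peaks was 4.61 on chromosome 7, against 4.22 to 4.43 on the other autosomes, of which chromosome 8 was the highest. From 80 to 95 Mb it was 4.83, and from 70 to 75 Mb it was 4.48.

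**Figure D4:**
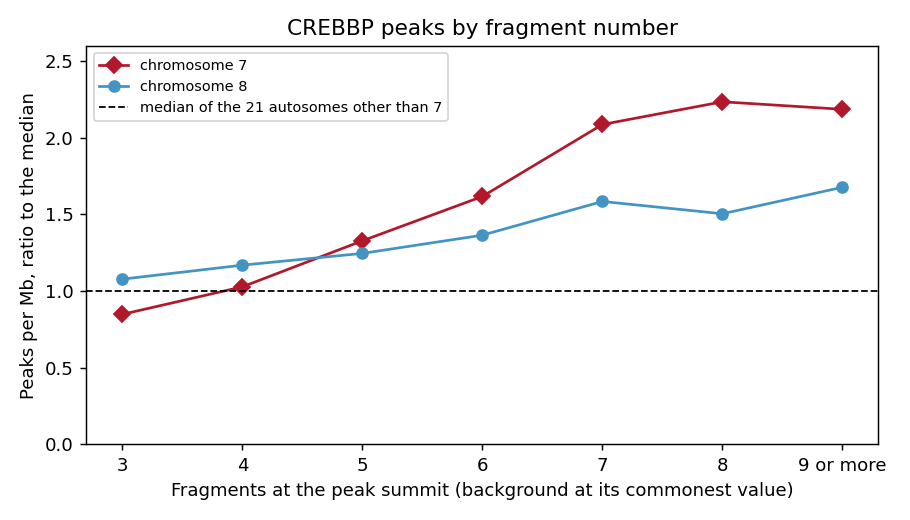
Density of CREBBP peaks by the number of fragments solved at the summit, among peaks at the commonest background of 1.3045 fragments, as a ratio to the median of the 21 autosomes other than 7 (dashed line). The ratio for chromosome 7 (red) is 0.848 at 3 fragments and 2.24 at 8, and that for chromosome 8 (blue) is 1.08 and 1.50.

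Inside H3K27ac regions the CREBBP peaks of chromosome 7 had more fragments over more background. The median was 23 fragments on chromosome 7 (21 to 24, n = 564 peaks) and 16 on the others (16 to 17, n = 10032 peaks). The median background was 10.2 fragments (9.24 to 11.1) and 6.87 (6.64 to 7.10) in these groups. The median fold inside was 2.08 on chromosome 7 (2.03 to 2.13) and 2.15 on the others (2.15 to 2.17), so fragments and background were both higher on chromosome 7 and the fold was not.

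The H3K27ac list showed a similar feature in its own values. At like fold, regions of chromosome 7 had smaller p-values than those of every other autosome in all but the lowest of 7 fold classes. Between a fold of 4 and 6 the median −log10 p was 48.9 on chromosome 7 (45.7 to 54.0, n = 209 regions) and 35.4 on the others, whose chromosome medians ran from 28.6 to 41.9. Between 8 and 12 it was 157.9 (145.1 to 172.7, n = 128 regions) and 110.2, with chromosome medians from 97.5 to 121.6. At a fold of 12 or more it was 315.8 and 213.0, and between 2 and 3 it was 11.2 and 8.69. The ratio of the medians ran from 1.29 at a fold of 2 to 3 to 1.48 at 12 or more, and was 1.10 below 2, where chromosome 7 ranked seventh. At a given fold a smaller p goes with a larger expected background, and the H3K27ac values are taken as means over regions, so fragments were not solved. Widths at a fold of 4 to 6 were 1488 bp on chromosome 7 and 1578.5 bp on the others.

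**Figure D5:**
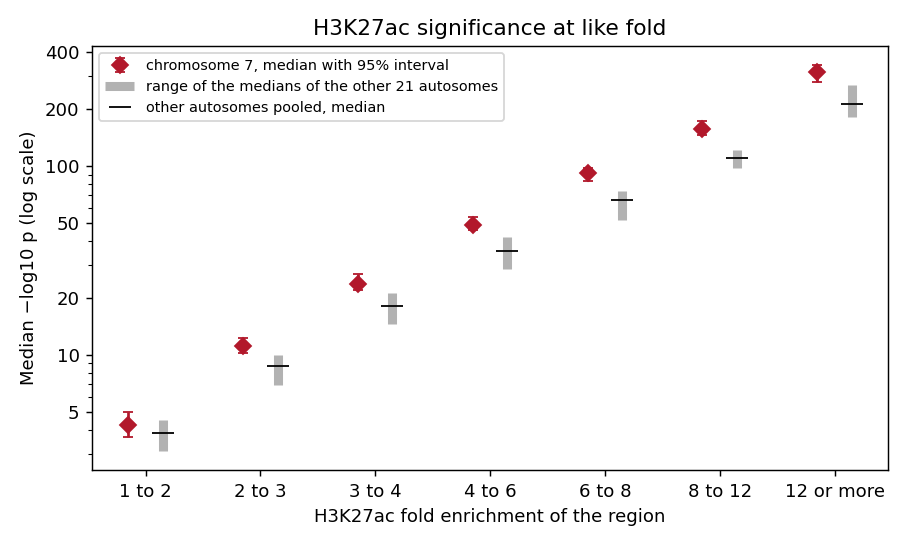
Median −log10 p (log axis) of H3K27ac regions in 7 classes of fold, for chromosome 7 (red diamonds with 95% intervals, left) and the other autosomes (pooled median as a black dash, range of the 21 chromosome medians as a grey bar). From a fold of 2 upward the diamond of chromosome 7 stands above the grey bar, as at 4 to 6, where it is 48.9 and the bar ends at 41.9.

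This held along the chromosome as well. Each H3K27ac region was given its −log10 p relative to the median of other autosomes' regions in its fold class. The median of this relative value was 1.35 over chromosome 7, against 0.845 to 1.13 on the other autosomes, and 0.947 on chromosome 8. Of 28 windows of chromosome 7 with at least 10 regions, 26 had a median above 1, against 49.8% of 422 such windows elsewhere. The exceptions were 130 to 135 Mb, at 0.830, and 65 to 70 Mb, at 0.901, and the highest value was 1.77, from 140 to 145 Mb. The dense CREBBP window from 80 to 85 Mb had a value of 1.09, that from 90 to 95 Mb a value of 1.59, and the sparse one from 70 to 75 Mb a value of 1.34.

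Single positions on chromosome 7 are given on hg19, counted from 1. The CREBBP peak with the largest fold, 7.61, lay at 142505964 to 142507231, with 105 fragments and a background of 12.9, inside an H3K27ac region of 6598 bp and fold 5.24. It ranked sixteenth in the whole list. The next 4 lay outside H3K27ac regions and had 12 to 14 fragments over backgrounds of 1.3045 to 1.848. One, with a fold of 6.08, was at 61204438 to 61204864, just beyond the empty stretch at the centromere and 2560 kb from the nearest H3K27ac region. Those at 93540542 to 93541744 and 94249946 to 94250433, with folds of 5.42 and 5.27, were 3.07 and 34.0 kb from a region and both lay in the dense window from 90 to 95 Mb. The remaining one, at 76898716 to 76899452, had a fold of 5.37 and was 76.5 kb away.

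By p-value the leading CREBBP peak, at 61968768 to 61969674, had a −log10 p of 111.2 with a fold of only 1.45. It was the 1 peak of the chromosome left unsolved for fragments, and it was 1795 kb from an H3K27ac region. Fragment numbers were tried only up to a fixed limit, and whether a larger number would solve this peak was not tested. The peak at 142505964 was next, and the other 3 all lay inside H3K27ac regions. At 1014895 to 1015383 there were 89 fragments over 20.3, with a CREBBP fold of 4.22, in a short region of 932 bp whose H3K27ac fold was 14.9. At 73515141 to 73516084 there were 62 fragments over 12.4, in a region of 3451 bp, and at 101950101 to 101950782 there were 82 over 23.1, in a region of 6913 bp.

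The widest H3K27ac regions of the chromosome did not lead the whole list, in which the first of them ranked 56th. It spanned 13.6 kb from 90337991 to 90351613, where the H3K27ac fold was 4.499, and it held 4 CREBBP peaks, of which 1 passed 0.05 on q. The second spanned 13.5 kb from 50342946 to 50356464 and held 1 CREBBP peak. The third, 13.0 kb from 101496815 to 101509808, had a fold of 8.93 and held 2. The fourth, 10.9 kb from 22477647 to 22488536, held 3, of which 2 passed 0.05 on q. The fifth, 10.7 kb from 18565250 to 18575964, held 2. The 5 regions with the largest H3K27ac fold were compact, from 726 to 1273 bp, and 3 of them held no CREBBP peak. The largest fold, 33.2, was at 156432957 to 156434113, in 1157 bp with no CREBBP peak. A region at 64498506 to 64499694 had a fold of 29.3 and 2 CREBBP peaks. Those at 111845914 to 111847186 and 112031511 to 112032236, with folds of 27.5 and 24.5, held none, and that at 106209082 to 106209925, with a fold of 27.3, held 1.

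The number of copies of chromosome 7 in SC1 was not measured in these lists, and its part in the CREBBP density, the fragment numbers and the H3K27ac p-values was not tested. In 4 windows taken as examples, mean fragments over all CREBBP peaks did not follow their density. The mean was 5.76 fragments in the dense window from 80 to 85 Mb and 5.39 from 120 to 125 Mb, and it was 8.63 in the sparse window from 70 to 75 Mb and 8.91 from 0 to 5 Mb. The median background in these 4 windows was 1.42, 1.3045, 1.848 and 1.97 fragments. CREBBP peaks inside H3K27ac regions, which had more fragments, made up 1.80%, 2.58%, 9.32% and 8.19% of peaks in these windows. At the commonest background the mean was 4.83 fragments from 80 to 95 Mb and 4.48 from 70 to 75 Mb. What set the window means was not tested. The input was not analysed here.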

How the data were processed

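ChIP-seq was done with CREBBP and H3K27ac antibodies in SC1 cells, 1 sample each. The submitters' processing notes name MACS2, Bowtie2, fastp and STAR, with hg19 as the build. Their settings, the control library and any pooling were not given in the sources used here. The authors deposited, for each peak, a fold enrichment (a ratio), −log10 p, −log10 q and a score, and for CREBBP a summit offset. The deposited CREBBP list reaches down to a −log10 p of 1.302, with no limit on q.

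All 22 autosomes were used. Intervals were placed by midpoint. Density was taken over the extent up to the last position of either list, or over occupied 100 kb bins. Share intervals are exact Clopper-Pearson, median intervals are binomial order statistics and density intervals are exact Poisson. Positions were named by rule: the 5 CREBBP peaks of largest fold and of smallest p, the 5 widest H3K27ac regions and the 5 of largest fold, and the 3 densest and 3 sparsest windows of each list. Other positions were chosen after their values were seen. The members and lists were chosen with earlier results of these data known. Fragments were solved as whole numbers up to a fixed limit, with no background below the commonest value, for 99.99% of autosomal CREBBP peaks. On simulated data the solution returned the right number for 1000 of 1000 peaks. All simulated peaks had more fragments than the median real peak and were solved without the lower limit on background. The recovery therefore does not cover peaks of few fragments. Alternatives were window size, occupied length, pooled autosomes, stricter lists, other overlaps and leaving out 80 to 95 Mb. Python 3.11.15, numpy 2.4.6, pandas 2.3.3, scipy 1.17.1 and matplotlib 3.10.9 were used.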

Additional observations from a re-analysis of the deposited data

How the results depend on the processing

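Of 38 alternative values, 22 stayed within the counting interval of the value reported (for rho, within 0.1), 14 moved further and 2 changed sides of 1. The 2 were the H3K27ac density ratio over occupied length, 0.965, and against the other autosomes pooled, 0.946, with 1.03 reported. It was 1.14 in the upper 50% of H3K27ac regions by q, in which 67.7% of windows lay above the median elsewhere and the fold ratio was 0.863. The CREBBP density ratio was 1.46 over occupied length, 1.50 against the others pooled, 1.63 in the upper 50% of peaks by p and 1.46 without 80 to 95 Mb, an alternative chosen after seeing the data. In the upper 50% of CREBBP peaks the fold ratio was 1.04 and the share inside H3K27ac 3.84%, and that share was 1.998% with the upper 50% of H3K27ac regions. With 10 Mb windows, 100% of CREBBP windows lay above the median elsewhere. With 2 Mb windows, rho was -0.26. Other settings were also added after seeing the data: beyond 200 kb the CREBBP ratio was 2.07 over all ground, and the H3K27ac −log10 p ratio at a fold of 4 to 6 was 1.23 in the upper 50% of regions, a choice that itself removes small −log10 p at low fold. The cause of the other shifts was not tested. No alternative was run for the solved fragments. Depth is not stated, and most CREBBP peaks rest on few fragments. No paired analysis was possible because no group had more than 1 sample.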
